A study of Mus musculus with 33 samples.

Results

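Late HSF1 regions between genes are stretches of mouse chromatin away from annotated genes where HSF1 peaks were called after 60 min of heat shock but not by both antibodies at 12 min. HSF1 was mapped by chromatin immunoprecipitation and sequencing (ChIP-seq) in MEFs, fibroblasts grown from mouse embryos, of 129Sv.BALB/c background. The groups were HSF1-/- cells and wild type cells, each unstressed, at 12 min and at 60 min of heat shock, and each with the antibodies CS (a Cell Signaling product) and MM (a gift of the Morimoto lab). Wild type cells were also profiled for the transcription factor SRF at these times. Each combination has 1 peak list, so there is no error between replicates and no test between conditions. The temperature, the origin of the cells and how they were kept are not given in the sources used here, and peak lists hold no expression values by which the cell type could be checked.

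A region was taken where a CS peak and an MM peak of wild type cells at 60 min overlapped by at least 1 bp. It was kept as late if it overlapped no such shared region at 12 min and no peak of either antibody before heat shock. The regions were thus selected on the peak calls of the wild type lists of all 3 times. Its summit, the midpoint between the strongest CS and MM summits, had to lie outside every annotated gene and more than 1 kb from every gene end. This left 725 regions among 3455 shared regions at 60 min (20.98%, exact 95% binomial interval 19.6% to 22.4%) and among 2221 late regions (32.6%, 30.7% to 34.6%). Of the other late regions, 1146 had their summit inside a gene and 350 at a gene end. Intervals cover counting error only.

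HSF1 is the main transcription factor of the heat shock response. In unstressed cells it is largely held inactive, and on heat shock it assembles into trimers that bind heat shock elements, short arrays of the unit GAA in alternating orientation. Sites far from genes may act as enhancers, as parts of unannotated transcription units, or without known effect on any gene.

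The genome sequence under these regions was not used here. Promoter windows from RefSeq (GRCm38.p6, 250 bases before to 50 bases after a gene start) overlapped 2 of the 725 regions. The region beside Gadd45g, a stress-inducible gene of the GADD45 family, ran across that whole gene, and its promoter is shown because it is the one promoter that lies entirely in a late region whose summit is between genes. These are the 250 bases before the Gadd45g start (GRCm38.p6, chr13:51846425-51846674, plus strand, written 5′ to 3′), with each GAA or TTC, the unit of a heat shock element, in capitals.
Gadd45g: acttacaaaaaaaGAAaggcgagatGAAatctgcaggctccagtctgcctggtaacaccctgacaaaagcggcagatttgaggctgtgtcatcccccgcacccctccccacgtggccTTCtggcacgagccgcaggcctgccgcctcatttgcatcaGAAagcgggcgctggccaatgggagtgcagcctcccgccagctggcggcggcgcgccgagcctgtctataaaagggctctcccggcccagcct
The 4 units in this window stood apart from each other, and no pair had the spacing of an element (GAANNTTC or TTCNNGAA, which each read the same on both strands). An element of 3 such units in alternating orientation with that spacing, on either strand, was in 198 of all 32851 promoter windows (0.603%). A pair of units, GAANNTTC or TTCNNGAA, was in 4946 of them (15.1%), windows with 3 units included.

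For the genes nearest to a late region, 657 promoter windows of 502 genes were found. A pair of units was in 73 of these windows (11.1%) and 3 units in 1 (0.152%). That window belonged to Map2k4, a kinase gene of the JNK stress pathway, and its element is shown as the single case of a full element at a neighbouring gene (GRCm38.p6, chr11:65745866-65745894, minus strand, 5′ to 3′, element in capitals).
Map2k4: ttactgtgGAAATTTCCGGAAttaacaga
This late region held 123 CS and 51 MM tags at 60 min and lay 99426 bp beyond the 3′ end of Map2k4, on chromosome 11 (65588286 to 65589302). A match is a description of letters and does not show binding.

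The late regions between genes had lower median tags and fold than all 60 min shared regions. Their tag counts (distinct reads in the peak) ran from 22 to 422 with CS, median 64, and from 10 to 252 with MM, median 30. Their fold enrichment over background, the value of MACS for each peak, had a median of 32.7 with CS (quartiles 23.9 and 47.8) and of 21.7 with MM (16.1 and 32.0). Over all 60 min shared regions the medians were 86 CS and 42 MM tags, and folds of 36.5 with CS and 24.2 with MM. These values come from the lists that chose the regions and are given as a description, without a test.

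**Figure D1:**
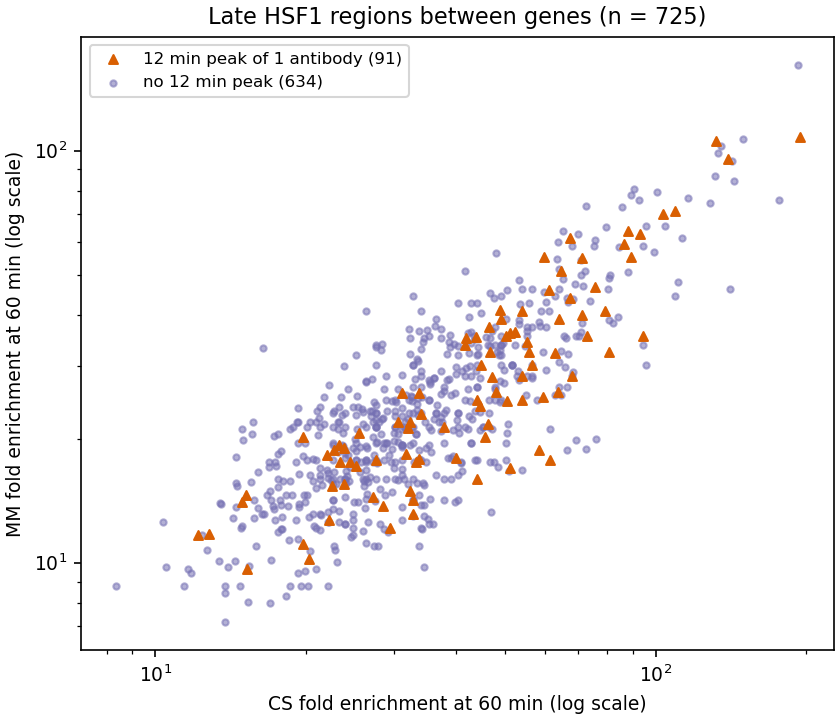
Fold enrichment of the 725 late regions between genes at 60 min with CS (x axis, log scale) and MM (y axis, log scale); triangles mark the 91 regions with a 12 min peak of 1 antibody and dots the other 634. Points rise together, and triangles lie over the whole range and are most frequent toward high folds.

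The rule required a CS and an MM peak to overlap, so how closely they agree in position and fold is a description. The CS and MM summits of a region lay 21 bp apart at the median and within 50 bp in 617 of 725 regions (85.1%), and at most 1082 bp apart; over all 60 min shared regions the median was 19 bp. The regions were 892 bp long at the median, from 443 to 4106 bp. Across the 725 regions the folds of CS and MM had a Spearman rho of 0.76; the regions share both libraries and the IgG control, and no p is given.

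Late regions between genes had a median fold of 32.7 with CS and 21.7 with MM, and those inside genes 31.1 and 20.9. Late regions at gene ends had a lower median fold, 26.0 and 18.9, on more tags, 76 with CS and 43 with MM. Regions between genes that were already shared at 12 min stood higher at 60 min, with a median fold of 65.1 with CS and 37.0 with MM and of 153.5 CS and 69 MM tags. The quartiles of late regions between genes, 23.9 to 47.8 with CS, overlapped those of the earlier ones, 39.3 to 102.7.

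**Figure D2:**
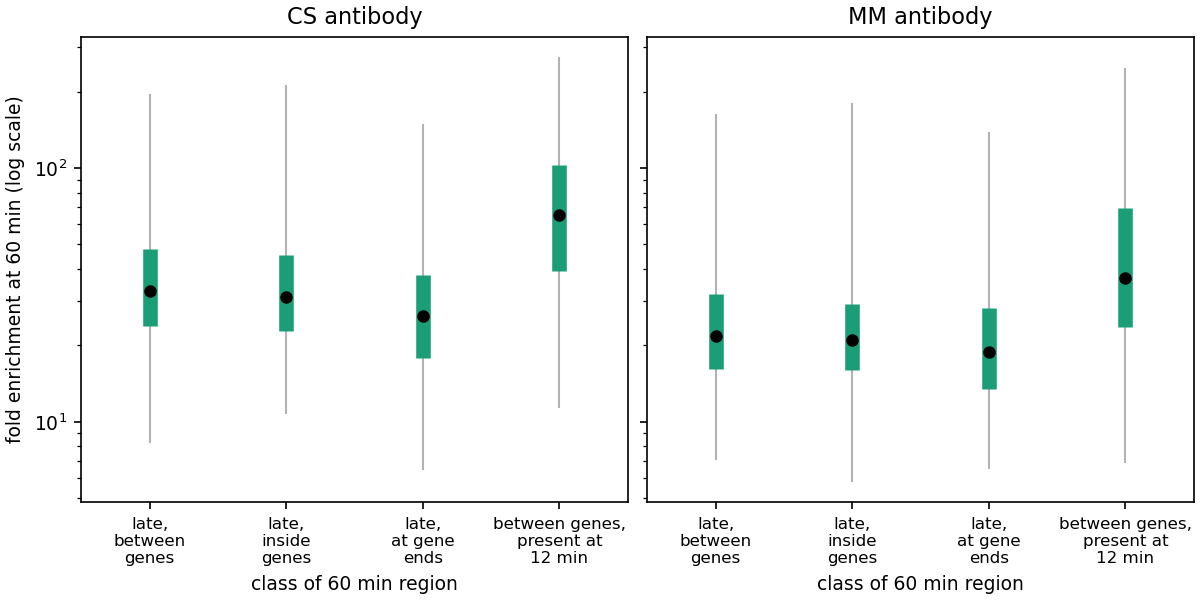
Fold enrichment at 60 min (log scale) with CS (left) and MM (right) in 4 classes of regions; dots are medians, thick bars quartiles and thin lines the full range. Medians of the 3 late classes lie close together (CS 32.7, 31.1 and 26.0), below that of regions between genes present at 12 min (CS 65.1).

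A deposited FDR of 5% or less with both antibodies was found in 561 of the 725 (77.4%, interval 74.2% to 80.4%), beside 83.4% of all 60 min shared regions. A p of 1e-10 or less with both antibodies was found in 248 (34.2%, 30.8% to 37.8%), beside 50.6% of all. Where only peaks of that p were used in every wild type list, 366 regions met the rule, with median folds of 53.2 (CS) and 35.5 (MM). With CS peaks alone, in place of shared regions, 1155 peaks met it.

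The strongest regions are given next, ordered by fold, with the ranks for both antibodies averaged. The first lay on chromosome 11 (89205975 to 89207408), 93969 bp from Nog, which encodes noggin, a secreted antagonist of BMP signals. It held 321 CS and 140 MM tags at 60 min (194 and 108 fold) and a CS peak of 61 tags at 12 min (13.3 fold), with no MM peak at 12 min and no peak in the 6 HSF1-/- lists. The second lay on chromosome 2 (129659729 to 129660693) between Sirpa and Pdyn, the precursor of the dynorphin opioid peptides, 26344 bp from Pdyn. It held 212 CS and 132 MM tags (192 and 162 fold) and no 12 min or HSF1-/- peak. The MM fold of this region was the highest of all late regions between genes, and the CS fold of the Nog region was the highest.

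The third lay 13553 bp beyond the 3′ end of Pcdh15, a protocadherin of inner ear hair cells, on chromosome 10 (74662886 to 74663879), with 156 CS and 88 MM tags (149.7 and 107 fold). The next lay on chromosome 5 (142937800 to 142939292) between a pair of cytoskeleton genes, 30515 bp from Actb, which encodes beta-actin, and 21864 bp from the 5′ end of Fscn1, which encodes the actin bundling protein fascin. It held 284 CS and 174 MM tags (135 and 102 fold). Neither region overlapped a 12 min or HSF1-/- peak. The nearest summits of 12 min shared regions lay 18417 bp from the Pcdh15 region and 9597 bp from the Fscn1 region. The median of this distance over the 725 regions was 338542 bp.

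The fifth lay 33859 bp from Stac on chromosome 9 (111527164 to 111528062), with 145 CS and 77 MM tags. The next lay between Slc6a2, the noradrenaline transporter gene (8898 bp away), and Ces1a, a carboxylesterase gene, on chromosome 8 (93010074 to 93011158). It held 254 CS and 125 MM tags at 60 min and an MM peak of 25 tags at 12 min. A region in a gene-poor stretch on chromosome 17 (63713701 to 63715061), 147619 bp from the tyrosine kinase gene Fer, held 250 CS and 116 MM tags at 60 min and an MM peak of 25 tags at 12 min. Of the first 12 regions, the Slc6a2, Fer and Nog regions were the ones with a 12 min peak.

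The others of the first 12 lay near Ypel5 (8353 bp; 196 CS and 75 MM tags) and Eif2s2 (27062 bp; 306 and 252 tags), which encodes the beta subunit of translation factor eIF2. They also lay near Rundc3a (8778 bp; 210 CS and 91 MM tags), Tmem59l (2384 bp; 422 and 222 tags) and Cbr1 (35868 bp; 160 and 86 tags). Cbr1 and its neighbour on the other side, Cbr3, encode carbonyl reductases. None of the first 12 overlapped an HSF1-/- peak.

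**Figure D3:**
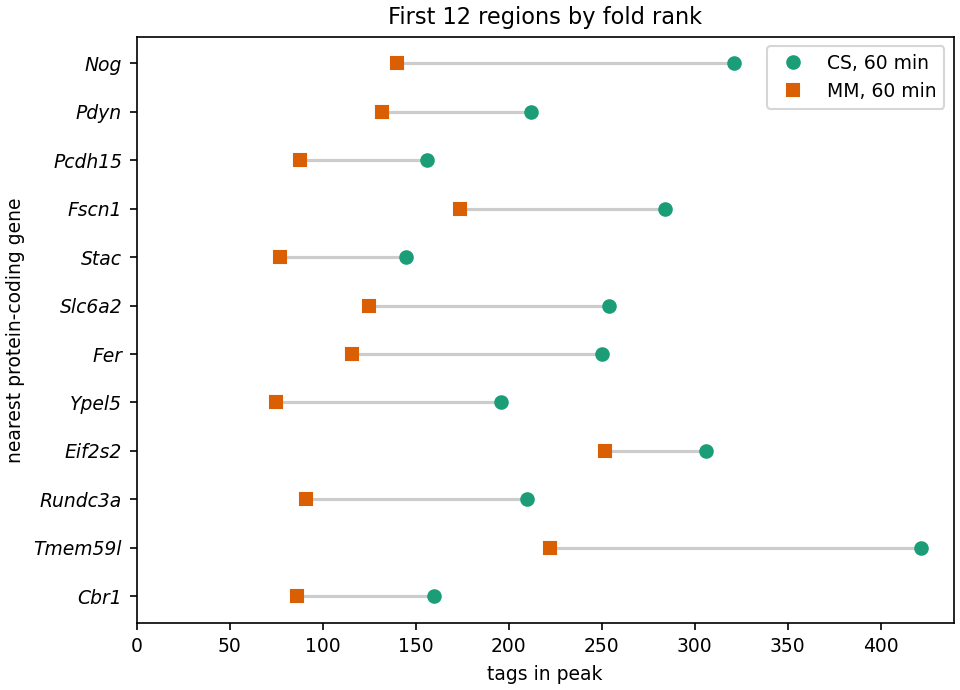
Tags at 60 min with CS (circles) and MM (squares) in the first 12 regions by fold rank, named by the nearest protein-coding gene. CS tags run from 145 near Stac to 422 near Tmem59l, and CS exceeds MM in each; the CS library was also the deeper.

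At the other end of the order, the lowest fold ranks belonged to regions 37020 bp from Socs5, a suppressor of cytokine signalling (79 CS and 34 MM tags; 8.33 and 8.77 fold), and 117281 bp from Klf14 (102 and 65 tags; 11.4 and 8.77 fold). Their CS and MM summits lay 371 and 708 bp apart, well above the median of 21 bp.

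Many of the regions were far from genes. The distance from the summit to the nearest end of a protein-coding gene was 27171 bp at the median (quartiles 8577 and 88297 bp; range 1016 to 993575 bp). It was 26574.5 bp at the median for the 378 regions between genes present at 12 min. Of the 725, 126 (17.4%) lay within 5 kb of a protein-coding end and 164 (22.6%, interval 19.6% to 25.8%) more than 100 kb away. To the end of any annotated gene, non-coding ones included, the median was 11270 bp. The open stretch between the annotated genes on both sides was 53343 bp long at the median. The nearest annotated gene was protein-coding for 313 regions (43.2%), a long non-coding RNA for 285 (39.3%) and of another kind for 127 (17.5%).

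**Figure D4:**
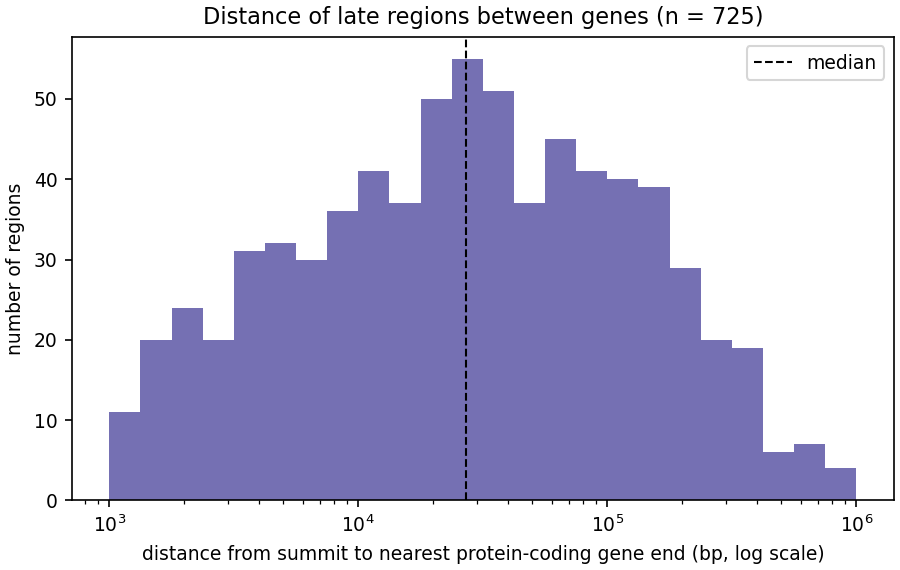
Number of late regions between genes (y axis) by distance from summit to the nearest protein-coding gene end (x axis, bp, log scale); the dashed line is the median of 27171 bp. The regions spread from 1016 to 993575 bp with a single broad top around the median.

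Strand was known for the nearest protein-coding gene of 569 regions. Of these, 315 lay on its 5′ side (55.4%, interval 51.2% to 59.5%) and 254 on its 3′ side. Within 10 kb the 5′ side held 94 of 164 (57.3%, 49.4% to 65.0%). The same share over other classes was not computed, and these shares were not tested. Median folds were close on both sides, 33.5 with CS and 21.7 with MM on the 5′ side and 32.9 and 21.3 on the 3′ side. The 164 regions over 100 kb from a protein-coding end had median folds of 34.1 and 23.0, and the 204 regions within 10 kb had 31.3 and 21.9.

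The region farthest from any gene lay on chromosome 4 (29916797 to 29917530), 720886 bp from the nearest annotated end and 949661 bp from Epha7, an ephrin receptor gene, with 52 CS and 27 MM tags (49.1 and 30.2 fold). A neighbour 716189 bp from a gene (29948025 to 29948692) held 50 CS and 22 MM tags. The next lay 242442 bp from Dmrta1 on the same chromosome (28 CS and 15 MM tags). Just inside the limit of 1 kb were regions 1016 bp from Krt19, a keratin gene (89 CS and 54 MM tags at 60 min and a CS peak of 40 tags at 12 min), and 1079 bp from Orm1, an acute phase plasma protein gene (51 and 23 tags, with an MM peak of 18 tags at 12 min). Just outside it were late regions 980 bp from Ankrd60 (57 CS and 28 MM tags) and 911 bp from Hmga2 (85 and 47 tags).

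Most late regions between genes stood alone, and some lay near each other. With members joined at up to 50 kb, 110 of 725 (15.2%, interval 12.6% to 17.99%) fell into 49 pairs and 4 groups of 3, and 615 stood alone. The same grouping was not computed for other classes of regions. A group lay within a few kilobases on chromosome 6 between the vomeronasal receptor genes Vmn1r43 and Vmn1r44, with 47, 83 and 92 CS tags and 19, 30 and 38 MM tags; neighbouring summits were 1974 and 1773 bp apart. A second was on chromosome 2 between Pmepa1 and 1700021F07Rik (111, 125 and 116 CS tags; 75, 56 and 82 MM tags). The third lay beside Phlda1 on chromosome 10 (87, 28 and 64 CS tags). The last lay beside Adgrl1, a latrophilin gene, on chromosome 8 (30, 46 and 40 CS tags).

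Some genes had several late regions around them, in part as the close pairs counted above. The 725 regions had 642 different nearest protein-coding genes, of which 66 were nearest to 2 or more regions and 13 to 3 or more; the genes named in this paragraph were chosen after these counts were seen. Gadd45g had the most, 6, which fell into close pairs between 1084 and 309458 bp from its ends. On its 3′ side the next protein-coding gene, Diras2, lay 654816 bp from the region at 1084 bp. Regions far from Gadd45g could thus still have it as nearest gene. The regions at 1084 and 290228 bp overlapped an HSF1-/- peak. The strongest of these lay 116501 bp away (237 CS and 113 MM tags; 68.9 and 47.4 fold). Sox9, a transcription factor of cartilage and testis development, had 4. The strongest of them lay 221882 bp away with 272 CS and 127 MM tags (79.5 and 65.4 fold), while the nearest, at 2246 bp, held 56 and 21. Cebpb, a transcription factor of inflammation and fat cell differentiation, had 3 regions of 80, 58 and 66 CS tags, the nearest at 5076 bp. Runx1, a transcription factor of blood development, had 3, all over 100 kb away, with 39, 87 and 173 CS tags. Ctnnb1, the gene of beta-catenin, had 3 on its 5′ side, of which the strongest held 190 CS and 120 MM tags at 102747 bp.

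Every autosome and the X chromosome held late regions between genes. Chromosome 2 held the most, 72 (9.93% of them, beside 8.77% of all 60 min regions), chromosome 19 the fewest, 15 (2.07%, beside 3.04%). Chromosome 13, with Gadd45g, held 46 (6.34%, beside 3.97% of all 60 min regions).

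The next question was whether HSF1 was already near these places at 12 min. The rule removed regions found by both antibodies at 12 min, so a 12 min peak of 1 antibody could still lie under a late region. It did in 91 of 725 (12.6%, interval 10.2% to 15.2%), beside 14.9% of all late regions. The share was 14.3% (12.3% to 16.5%) in late regions inside genes and 22.0% (17.8% to 26.7%) in those at gene ends. CS alone gave the peak in 45 regions and MM alone in 45. In 1 region, 23322 bp from Musk on chromosome 4 (58400676 to 58402632), both antibodies had 12 min peaks that did not touch each other. These class differences were not tested, since regions of 1 list are not replicates.

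Regions with a 12 min peak also had higher median folds at 60 min. Their median fold at 60 min was 46.2 with CS and 25.2 with MM, against 32.3 and 21.3 in the 634 regions without one. The 46 regions with a 12 min CS peak had medians of 44.3 with CS and 21.8 with MM, so the MM median was close to that without a peak. The 46 with a 12 min MM peak had 49.0 and 28.4. In 4 groups of near equal size by fold rank, from strongest to weakest, 22.0%, 10.5%, 8.29% and 9.39% had a 12 min peak. These shares rest on lists the rule used and were not tested. The 12 min CS peaks held 20 to 181 tags, median 41.5, beside a median of 67 over all 12 min CS peaks. The 12 min MM peaks held 13 to 67 tags, median 23.5, beside 38. A p of 1e-10 or less was found for 3 of these 46 CS peaks, beside 761 of all 1781 CS peaks at 12 min, and for 1 of the 46 MM peaks, beside 757 of all 1927. The rule had removed the 12 min regions that both antibodies shared. The highest CS fold at 12 min, 41.6, lay under a region near the bradykinin receptor gene Bdkrb2, whose CS fold at 60 min was 41.7.

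Sequencing was deeper at 12 min than at 60 min, with 19608017 CS and 14013456 MM tags at 60 min against 26301665 and 17741564 at 12 min. MACS put the fragment length at 161 bp for CS and 114 bp for MM at 60 min, against 128 and 107 bp at 12 min. Before heat shock it was 45 bp for CS and 40 bp for MM, in lists of 180 and 449 peaks. The part of depth and fragment length in the number of late regions was not tested.

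Nearness to earlier regions was about the same in all late classes. A summit of a 12 min shared region lay within 100 kb of 181 of the 725 (24.97%, interval 21.9% to 28.3%), beside 24.9% of all late regions, 24.6% of those inside genes and 25.7% of those at gene ends. The median distance was 338542 bp. With wild type peaks of p of 1e-10 or less the share was 15.8% of 366 regions. Fewer 12 min regions then counted and the set of late regions also changed, and the part of each was not tested. Counting all 60 min regions, 233 (32.1%) had another within 50 kb, a share not computed for the other classes.

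HSF1-/- cells show what the antibodies bring down without HSF1. A peak of the 60 min HSF1-/- lists lay under 10 of the 725 regions (1.38%, interval 0.66% to 2.52%), beside 3.33% of all 60 min shared regions. A peak of any HSF1-/- time lay under 31 (4.28%, 2.92% to 6.01%), beside 8.86% of all. The share for any time was 5.50% (4.25% to 6.98%) in late regions inside genes, 12.9% (9.53% to 16.8%) in those at gene ends and 8.73% (6.09% to 12.0%) in regions between genes present at 12 min. With wild type peaks of p of 1e-10 or less it was 6.56% of 366 regions, a set that can hold regions outside the 725. HSF1-/- lists were called without a control library and, time by time with the same antibody, from fewer tags than the wild type lists, so the thresholds are not the same. Longer regions can also overlap more peaks. Median length was 892 bp in late regions between genes and inside genes, and 1060 bp in those at gene ends. It was 1116 bp in regions between genes present at 12 min. The part of length in these shares was not tested.

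**Figure D5:**
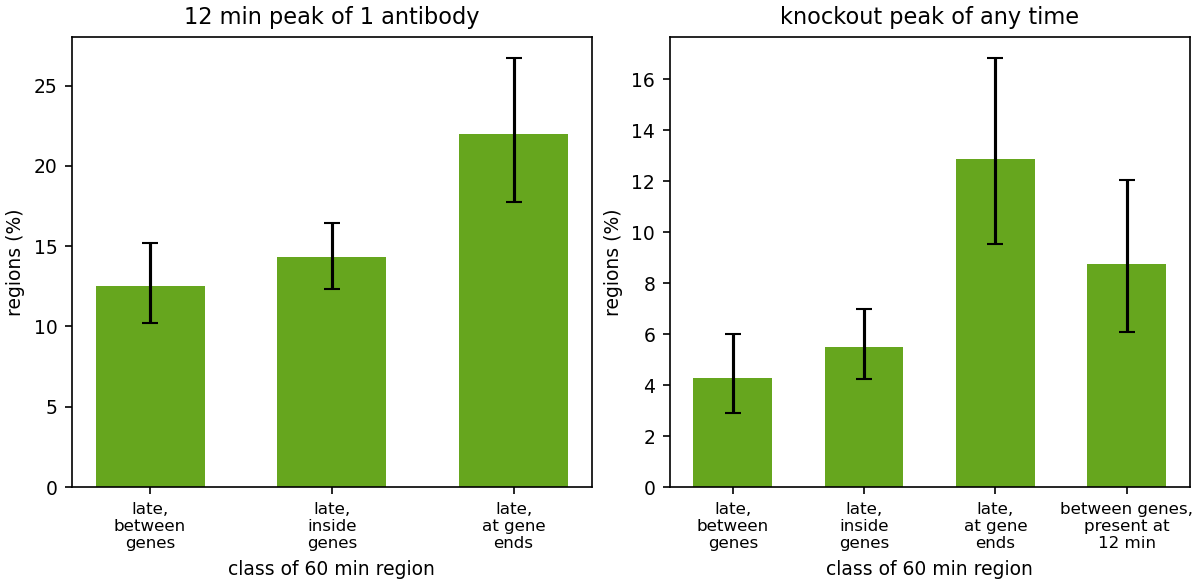
Share of regions (%) with a 12 min peak of 1 antibody (left) and with a peak of any HSF1-/- list (right), by class of 60 min region, with only the 3 late classes on the left; bars start at 0 and error bars are exact 95% binomial intervals (counting error only). Among the classes drawn, late regions between genes have the lowest share in each panel (12.6% and 4.28%), with late regions inside genes next (14.3% and 5.50%).

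The HSF1-/- peaks under these regions held few tags. There were 35 of them, with 4 to 10 tags, median 6, and none had p of 1e-10 or less. The same values over all HSF1-/- peaks were not computed. MACS put the fragment length at 33 to 40 bp in HSF1-/- lists, against 107 to 161 bp in heat-shocked wild type lists. In unstressed wild type lists it was also short, 45 bp with CS and 40 bp with MM. These HSF1-/- peaks were also narrower than the late regions, so their tags and the wild type tags are not counted over like widths. The region at Gadd45g overlapped HSF1-/- peaks of 8 tags (MM, before heat shock), 5 and 8 tags (CS, 12 min) and 10 tags (MM, 12 min), while in wild type cells it held 298 CS and 53 MM tags at 60 min and an MM peak of 66 tags at 12 min. A region on chromosome 1 (12657261 to 12658976), 33811 bp from Sulf1, a heparan sulfate sulfatase gene, overlapped HSF1-/- peaks of 7 tags (MM, 12 min) and 8 tags (CS, 60 min), against 179 CS and 33 MM tags in wild type cells at 60 min and a CS peak of 28 tags at 12 min. A region 8702 bp from Cln6 overlapped an HSF1-/- peak of 7 tags (MM, 12 min), against 40 CS and 29 MM tags in wild type cells at 60 min, and regions near Phlda1 and Rxra also had HSF1-/- peaks of 7 tags. In the 4 groups by fold rank, from strongest to weakest, 3, 8, 9 and 11 regions overlapped an HSF1-/- peak.

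SRF, a factor of immediate early and actin genes, was found at few of these regions. A 60 min SRF peak overlapped 1 of 725 (0.138%, interval 0.0035% to 0.77%), beside 0.145% of all 60 min shared regions, and an SRF peak of any time overlapped 2, beside 0.637%. The first lay on chromosome 17 (65960911 to 65962679), 3552 bp from the 3′ end of Ankrd12, with 283 CS and 81 MM tags and an SRF pileup of 8 tags at 60 min (-log10 q of 9.98). It also overlapped an HSF1-/- peak of 6 tags (CS, 60 min). The other lay on chromosome 8 (10664231 to 10665703), 30331 bp from Myo16, a myosin gene, with 100 CS and 39 MM tags at 60 min. Its SRF pileup was 4 tags before heat shock and 3 tags at 12 min, and no SRF peak was listed there at 60 min. The SRF libraries were shallow, 750970 to 1548276 tags, and a lack of overlap cannot show a lack of SRF.

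Genes of the stress response were looked up near the regions. Of all 21631 protein-coding genes, 2.97% were the nearest gene of a late region between genes and 7.86% had such a region within 100 kb of an end. Of 42 cytosolic chaperone genes, 2 had one within 100 kb (4.76%), and Hspa4, which encodes an Hsp110-type partner of Hsp70, was the only nearest gene. That region held 88 CS and 37 MM tags, 1831 bp beyond the 3′ end of Hspa4 on chromosome 11 (53257521 to 53258525), and Hspa4 had a shared HSF1 region at an end at 12 and 60 min. None of 8 TRiC/CCT chaperonin genes and none of 5 heat shock factor list genes had one within 100 kb. Of 9 mitochondrial chaperone and protease genes, 3 did (Hspa9, Clpx and Grpel1), of 20 endoplasmic reticulum genes 2 (Canx and Atf4), and of 16 ubiquitin and clearance genes 5, among them Sqstm1 and Nedd4. None of these was the nearest gene of a region.

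Immediate early genes, transcribed within minutes of a stimulus, had 7 of 26 within 100 kb of a late region (26.9%). The strongest of these regions with its gene as nearest lay 6492 bp from the 5′ end of Atf3, a stress transcription factor, with 125 CS and 63 MM tags (72.3 and 51.0 fold) and an HSF1-/- peak of 6 tags (MM, 12 min). A region 4075 bp beyond the 3′ end of Gadd45b held 261 CS and 190 MM tags at 60 min and an MM peak of 42 tags at 12 min. A region 4702 bp from Ier2 held 100 CS and 68 MM tags. Klf4, a zinc finger transcription factor, was the nearest gene of a region 471358 bp away with 101 CS and 59 MM tags at 60 min and an MM peak of 18 tags at 12 min.

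Among 30 actin cytoskeleton genes 6 had a late region within 100 kb, including Actb through the region beside Fscn1. Nearest genes were Myh9, the non-muscle myosin heavy chain (158 CS and 76 MM tags at 6471 bp), Wdr1, an actin disassembly factor (61 and 28 tags at 5633 bp; HSF1-/- peak of 5 tags), and Actn4, an alpha-actinin (30 and 18 tags at 3189 bp). Of 22 extracellular matrix and fibroblast genes 3 had one (13.6%), led by Col5a1, a fibrillar collagen gene with a region 24356 bp on its 5′ side (243 CS and 127 MM tags at 60 min, MM peak of 67 tags at 12 min). Another lay 1926 bp beyond its 3′ end (94 CS and 46 MM tags at 60 min, MM peak of 16 tags at 12 min). The region on the 5′ side of Col5a1 had the summit of a 12 min shared region 3323 bp away. Mmp2, a matrix protease gene, had a weak one at 8946 bp (29 and 17 tags).

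Of 13 heme, metal and redox genes 3 had a late region within 100 kb (23.1%). Hmox1, the heme oxygenase gene, had one at 3777 bp (164 CS and 89 MM tags; HSF1-/- peak of 4 tags), and Txnrd1, a thioredoxin reductase gene, one at 19176 bp beyond its 3′ end (108 and 66 tags). Among 22 markers of other cell types only Hba-a1 had one within 100 kb, and the endothelial gene Cdh5 was the nearest gene of one 566398 bp away. The lists are short and were chosen with earlier results known; gene density differs between them, and their shares were not tested against each other.

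The genes nearest to late regions were also asked for HSF1 at their own ends. Of the 642 nearest genes, 31 had a shared HSF1 region at an end at 60 min (4.83%, interval 3.30% to 6.78%), beside 2.58% of all protein-coding genes, and 14 at 12 min (2.18%, 1.20% to 3.63%), beside 1.53%. These shares were not tested, and they were not computed for genes nearest to other classes of regions. The examples given here were chosen after their values were seen. Eif2s2, among the first 12 regions above, had HSF1 at an end at 60 min and not at 12 min. Fadd, an adaptor of death receptors, had HSF1 at an end at 12 and 60 min and a late region with 48 CS and 41 MM tags at 11088 bp.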

How the data were processed

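Peak lists of 15 of the 33 samples were used; the nascent RNA, IgG and input samples were not analysed here. For wild type cells, CS and MM peaks came from MACS 1.4.2 at p of 1e-04 against IgG from files named as merges of 2 replicates, and HSF1-/- peaks with no control, per the file headers. SRF peaks came from MACS2 2.0.9, per the file headers. Coordinates are of mm10, per the labels, and no aligner is named in the sources used here. As deposited by the authors, each HSF1 peak has a tag count, a score (minus 10 times log10 of p), a fold enrichment (a ratio) and, in wild type, an FDR in percent. The SRF peaks deposited by the authors each have a pileup signal, a -log10 p and -log10 q, and a fold.

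Tags after filtering numbered 5183722 to 15582874 in HSF1-/- libraries and 14013456 to 26301665 in wild type CS and MM libraries. Depth sets the smallest peak that can be called. Genes came from the RefSeq table of GRCm38.p6, the primary assembly of mm10 (49980 annotated genes); strand came from the promoter table. Shares have exact (Clopper-Pearson) 95% intervals from scipy 1.17.1 (Python 3.11.15). Overlap and position code was tested on simulated regions. No test was run, with 1 list per condition. Regions were named by a rule: the first 12 by fold rank, the 3 farthest, those beside the 1 kb limit, those with SRF or the largest HSF1-/- peaks, the largest groups and genes of 11 fixed lists (213 genes). Other named regions are outside this rule and were picked from the results. They include those near Sox9, Cebpb, Runx1, Ctnnb1, Socs5, Klf14, Bdkrb2, Musk, Rxra, Fadd and Map2k4. The members, lists and rules were chosen with earlier results of these data known. Heat shock elements at summits, planned for these regions, were not examined because no genome sequence was used. Some genes near these regions are not reported here.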

Additional observations from a re-analysis of the deposited data

How the results depend on the processing

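The count of late regions between genes, 725, was within 1.5 times of its value with a 60 min FDR of 5% or less, 50% overlap of CS and MM, no 12 min peak of either antibody, a 5 kb limit, protein-coding genes only, whole regions outside genes, MM alone, and without regions over HSF1-/- peaks (513 to 973). It was 366 with p of 1e-10 or less and 1155 with CS alone. Of 74 values under alternatives, 59 stayed within the interval or the 1.5-fold range and 15 moved. With p of 1e-10 or less, 6.56% overlapped an HSF1-/- peak of any time and 15.8% lay within 100 kb of a 12 min region. Median folds were then 53.2 (CS) and 35.5 (MM). That limit was set on all wild type lists, so weaker earlier peaks no longer removed regions and the set changed. The parts of the stricter p and of the changed set in these values were not tested. With the FDR limit median folds were 37.3 and 24.9. Beyond 5 kb, the median protein-coding distance was 40803 bp, 9.94% had a 12 min peak of 1 antibody, and the share with a 60 min SRF peak was 0%. With no 12 min peak of either antibody allowed, the share with a 12 min peak was 0% by construction. Within 20 and 500 kb, 8.14% and 62.8% had a 12 min region. Without regions over HSF1-/- peaks, an alternative chosen after seeing the data, the SRF share was 0%. The planned changes of window and motif for heat shock elements were not run, since no genome sequence was used. No paired analysis was possible because each condition has 1 list and the labels carry no replicate numbers. Depth limits weak peaks: binding below the calling threshold at 12 min is not in these lists.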
